A study of Mus musculus with 8 samples.

Results

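The immunity-related GTPases were followed as 8 rows of the deposited count tables, out of 23304 gene rows in all. The rows were picked by gene symbol. Irgm1, Irgm2 and Igtp (also called Irgm3) form the regulatory group, and Iigp1, Ifi47, Gm12185 and Tgtp2 the effector group. Gvin1 encodes a far larger interferon-inducible GTPase and was kept apart. Reads were found for 7 of the 8 rows, and the same 7 passed the filter on low counts. Gvin1 had 0 reads in each of the 8 libraries.

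RNA was sequenced from NIH3T3 cells, an established mouse fibroblast line whose strain is given as Swiss albino, in 4 labelled groups of 2 libraries. The labels name WT cells and cells carrying a CRISPR knockout of Zmynd11 (KO), a chromatin reader protein. Both were sampled at 0 h with no agent and after 2 h in 100 units/ml of IFN-β, a type I interferon of mouse sequence made in recombinant form. Cells grew in medium with donor bovine serum, and the extraction text of the labels speaks of embryonic fibroblasts (MEFs) in place of NIH3T3. Whether the KO cells were 1 clone or a pool, and whether paired libraries are separate cultures, is not stated. The p-values below therefore rest on a spread between libraries that may be purely technical.

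These GTPases are a cell-autonomous arm of mouse immunity. Interferon raises their transcripts, and the effector proteins then load onto the membrane of vacuoles that hold intracellular parasites and bacteria. The regulatory proteins sit on the membranes of the cell itself and hold the effectors there in their inactive, GDP-bound form. The groups differ in the first GTP-binding motif of the protein, where the effectors carry a lysine and the regulatory proteins a methionine. Transcription of the family is known to run through the Stat-containing factors that bind the interferon-stimulated response element (ISRE) and the gamma-activated site (GAS).

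Gene reads summed to 13671013 to 21299120 per library, and levels are given as CPM, the read count divided by a TMM-scaled library size, in which 1 read was worth 0.0459 to 0.0700 CPM. Zmynd11 was read first as a check of the labels, and it went with the time label: 1967 to 2511 reads in each library labelled 0 h, whether WT or KO, and 59 to 72 in each labelled 2 h. An edited gene need not lose its transcript, but this level goes against the genotype label of the libraries labelled KO 0 h and WT 2 h, and all directions below are directions between labels. Isg15, an interferon-induced gene named here after its values were seen, went with the genotype label: 4.44 and 5.16 CPM in WT 0 h, 3.51 and 3.61 in WT 2 h, and 64.4 to 74.1 in the 4 KO libraries. Were those labels exchanged, the comparison named KO 0 h against WT 0 h would become WT 2 h against WT 0 h, that named KO 2 h against WT 2 h would become KO 2 h against KO 0 h, and the reverse. KO 0 h against WT 2 h would change sign, while KO 2 h against WT 0 h and the interaction would stay as they are. The library labelled KO 0 h replicate 2 stood apart in having reads for 17498 genes, against 14847 to 15945 in the others. Fibroblast markers summed to 41014 to 45834 CPM in the libraries labelled 0 h and to 18519 to 20462 CPM in those labelled 2 h. Of these 8 genes, 6 were called lower and 1 higher in WT 2 h against WT 0 h, and 5 lower and 1 higher in KO 2 h against KO 0 h. Col1a1 was at 10521 and 928 CPM in WT 0 h and WT 2 h, whereas Fn1, at 12062 and 10926 CPM, was not called in either. Macrophage markers, of a cell type that makes these GTPases in quantity, had reads for each of their 7 genes and summed to 43.9 to 91.0 CPM. They summed to 43.9 to 45.4 CPM in WT 0 h, 53.1 to 78.2 in KO 0 h, 71.3 to 72.5 in WT 2 h and 56.8 to 91.0 in KO 2 h. Endothelial markers summed to 2.41 to 5.08 CPM at 0 h and 12.2 to 14.7 CPM at 2 h. Vwf made up most of the sum at 2 h (0.416 CPM in WT 0 h and 11.4 in WT 2 h), while Cdh5 was called lower in WT 2 h against WT 0 h and the other 3 of the 5 were not called. Epithelial markers summed to 2.53 to 5.30 CPM over the 8 libraries. The lymphocyte markers, 6 genes with Cd3e at 0 reads throughout, summed to at most 0.601 CPM. None of the 7 macrophage markers was called between KO 0 h and WT 0 h by edgeR or DESeq2 (at an unadjusted p below 0.05, 3 were higher and 1 lower), nor between KO 2 h and WT 2 h (0 higher and 1 lower). Between the time labels, Lyz2 (0.85) and Cd14 (1.01) were called higher in WT 2 h against WT 0 h, while in KO 2 h against KO 0 h Cd14 was called higher (1.32) and 1 marker lower, by edgeR on the log2 scale. The part of all these markers in the levels of the GTPases was not tested.

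The promoters of the family were compared for what the members share in sequence. RefSeq promoter windows on GRCm38.p6, running from 250 bases before to 50 after the annotated start, were picked by symbol. Windows of 6 of the 8 members were used. Iigp1 and Gvin1 were left out of the search, so the counts below do not cover them. Whether the promoter of either holds the motifs was not tested. The windows were searched on both strands for the ISRE core, spelled GAAA, then any 2 bases, then GAAA, and for the GAS, spelled TTC, then any 3 bases, then GAA. An ISRE core was found in 5 of the 6 windows, and 4 of these also held a GAS. Among 32851 RefSeq promoter windows of the same length, 3.44% held an ISRE core, 8.30% a GAS and 0.454% both. The stretches of 50 bases that hold the ISRE cores are shown, because the ISRE core is what these 5 windows have in common, 5′ to 3′ along the gene, with matches to either motif in capitals.
Irgm1: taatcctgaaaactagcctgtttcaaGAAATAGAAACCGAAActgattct
Irgm2: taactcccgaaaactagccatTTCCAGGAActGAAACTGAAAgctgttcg
Igtp: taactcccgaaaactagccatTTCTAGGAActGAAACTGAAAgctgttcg
Tgtp2: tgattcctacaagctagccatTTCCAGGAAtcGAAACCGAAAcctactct
Gm12185: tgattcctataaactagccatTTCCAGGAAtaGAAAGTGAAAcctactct

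The Irgm1 stretch lies at chr11:48871427-48871476 on the minus strand, and holds overlapping ISRE cores that begin 30 and 24 bases before the start, with no GAS. The Irgm2 stretch is chr11:58214881-58214930 and that of Igtp chr11:58199490-58199539, both on the plus strand. The Tgtp2 stretch is chr11:49064265-49064314 and that of Gm12185 chr11:48927240-48927289, both on the minus strand. In the 4 windows with both motifs, the GAS came first and 2 bases separated it from the ISRE core. The Irgm2 and Igtp stretches differed at 1 of 50 bases, those of Tgtp2 and Gm12185 at 5 of 50, and those of one pair from the other at 12 to 14 of 50. The Irgm1 stretch differed from the other 4 at 18 to 22 of 50 bases. Over the whole 300-base windows, Tgtp2 and Gm12185 were 93.4% identical when aligned, Irgm2 and Igtp 73.5%, and the other pairs 46.8 to 54.0%. The Ifi47 window held neither spelling. A match is a description of the letters and not evidence of binding.

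**Figure D1:**
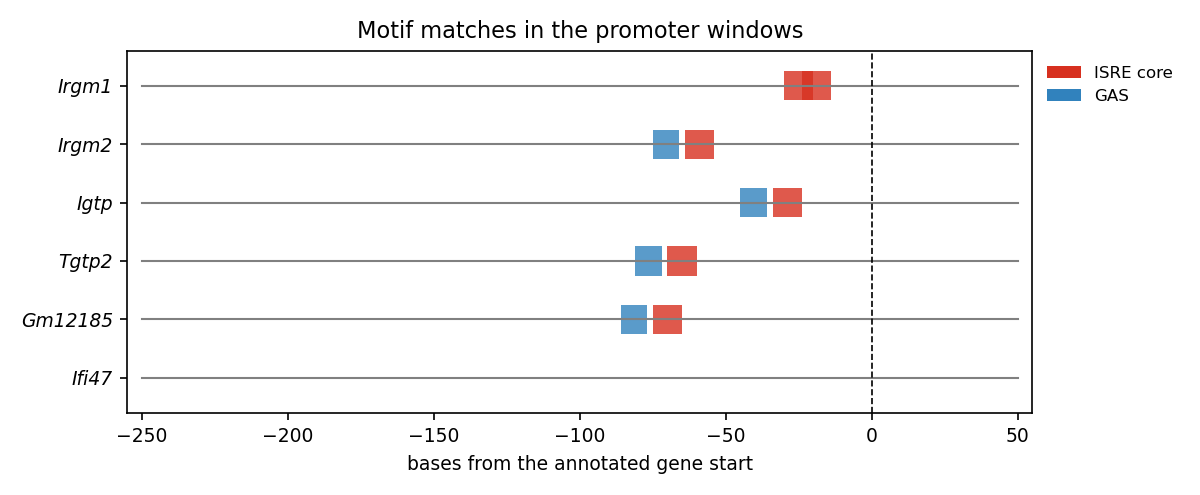
Matches to the ISRE core (red) and the GAS (blue) in the promoter windows of 6 genes, by distance in bases from the annotated start (dashed line). Irgm2, Igtp, Tgtp2 and Gm12185 each have a GAS followed 2 bases later by an ISRE core, Irgm1 has overlapping ISRE cores, and Ifi47 has no match.

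How far a member can be counted depends on how much of its transcript is its own, because reads that mapped to several places were left out of the gene rows in the deposited tables. Transcripts matched to RefSeq in GENCODE M21 (GRCm38) were cut into all windows of 50 bases and looked up in the RefSeq-matched transcripts of other genes. For Irgm1, Irgm2, Igtp, Iigp1 and Ifi47 the share of windows found elsewhere was 0.814 to 10.1%, the highest being Igtp, whose shared windows lay in Irgm2. Gm12185 shared 15.2%. Tgtp2, however, shared 90.6% of its windows, mostly with its neighbour copy Tgtp1, and Gvin1 shared 98.3%, all with Gm4070. With windows of 100 bases, Tgtp2 still shared 80.4% and Gvin1 96.6%. Tgtp1 and Gm4070, which are no members, had 0 reads in each library as well. The 0 reads of Gvin1 cannot be read as absence of the transcript, and the level of Tgtp2 is that of its unshared stretches only.

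Irgm1 was the member with the most reads in each library. This regulatory GTPase is needed for control of mycobacteria and for the survival of activated lymphocytes. In the libraries labelled WT 0 h it stood at 22.9 and 23.2 CPM, and in WT 2 h at 75.6 and 71.8 CPM. In KO 0 h it stood at 376 and 383 CPM, and in KO 2 h at 468 and 408 CPM. The 4 groups did not overlap, in the order WT 0 h, WT 2 h, KO 0 h and KO 2 h. The largest step in that order was from WT 2 h to KO 0 h (log2 fold change 2.36, SE 0.08, edgeR adjusted p = 1.74e-16). The smallest was from KO 0 h to KO 2 h (0.21, SE 0.08, edgeR adjusted p = 0.0231), a call that did not hold when KO 2 h replicate 1 was left out (0.13, edgeR adjusted p = 0.236, with 0.000375 to 0.236 over all alternatives). In bulk RNA, a change in the number of cells that make a transcript and a change in its amount per cell cannot be told apart.

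Irgm2, a regulatory GTPase that also restrains the response to bacterial lipopolysaccharide in the cytosol, was close to absent in WT 0 h, with 16 and 8 reads (0.781 and 0.393 CPM). It stood at 4.64 and 4.28 CPM in WT 2 h, at 123 and 138 CPM in KO 0 h and at 209 and 203 CPM in KO 2 h. The groups did not overlap, and their order was that of Irgm1. Irgm2 gave the largest difference of any member with reads in both groups: KO 2 h exceeded WT 0 h by 8.44 on the log2 scale (SE 0.16, edgeR adjusted p = 6.18e-21). The step from KO 0 h to KO 2 h was 0.66 (SE 0.09, edgeR adjusted p = 7.92e-07).

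Igtp, the third regulatory GTPase, needed for resistance to Toxoplasma, lies beside Irgm2 on chromosome 11. It stood at 0.732 and 0.442 CPM in WT 0 h (15 and 9 reads), at 3.29 and 5.05 CPM in WT 2 h, at 68.8 and 76.6 CPM in KO 0 h and at 137 and 113 CPM in KO 2 h. Its groups also stood apart in the same order. From KO 0 h to KO 2 h it rose by 0.79 on the log2 scale (SE 0.11, edgeR adjusted p = 2.72e-06). Per kb of transcript, its level in KO 0 h was 36.0 ± 2.74 CPM per kb beside 37.8 ± 3.01 for Irgm2, and in KO 2 h 62.0 ± 8.34 beside 59.6 ± 1.31 (mean ± SD, n = 2 each). These levels per kb lay within the spread of the libraries.

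Iigp1 (Irga6) is an effector whose assembly on vacuole membranes has been studied most, and it is the member on chromosome 18. It had 3 and 6 reads in WT 0 h (0.146 and 0.295 CPM) and 4 and 5 in WT 2 h (0.216 and 0.278 CPM). In KO 0 h it stood at 32.4 and 45.8 CPM and in KO 2 h at 35.7 and 28.9 CPM. The WT 0 h and WT 2 h groups overlapped, as did KO 0 h and KO 2 h, and each KO library lay above each WT library. KO 0 h exceeded WT 0 h by 7.42 on the log2 scale (SE 0.29, edgeR adjusted p = 6.00e-15), and KO 2 h exceeded WT 2 h by 7.004 (SE 0.30, edgeR adjusted p = 2.47e-14). The differences between 2 h and 0 h did not pass in WT (0.16, SE 0.77, edgeR adjusted p = 0.875) or in KO (-0.26, SE 0.15, edgeR adjusted p = 0.126). In KO the value rested on the 0 h library used: without KO 0 h replicate 1 it was -0.47 (edgeR adjusted p = 0.00957), and without KO 0 h replicate 2, the library that stood apart, 0.0035 (edgeR adjusted p = 0.989), which are also the ends of the range over all alternatives.

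Ifi47 (Irgd) is an effector first found as an interferon-gamma-induced protein. It stood at 1.32 and 1.08 CPM in WT 0 h, 2.16 and 2.33 CPM in WT 2 h, 12.7 and 13.8 CPM in KO 0 h and 16.1 and 15.1 CPM in KO 2 h. The groups did not overlap and had the order of the regulatory genes. KO 0 h exceeded WT 0 h by 3.46 on the log2 scale (SE 0.21, edgeR adjusted p = 2.55e-11), the smallest such difference among the 7 tested members. WT 2 h exceeded WT 0 h by 0.90 (SE 0.27, edgeR adjusted p = 0.00631), a call lost without WT 0 h replicate 2 (0.75, edgeR adjusted p = 0.071, with 0.00226 to 0.071 over all alternatives). KO 2 h against KO 0 h gave 0.24 (SE 0.16, edgeR adjusted p = 0.188).

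Gm12185, an effector-type gene model in the same chromosome 11 cluster as Irgm1, had another order. It stood at 0.391 and 0.0982 CPM in WT 0 h (8 and 2 reads), 1.83 and 1.39 CPM in WT 2 h, 6.29 and 7.82 CPM in KO 0 h and 3.31 and 2.94 CPM in KO 2 h. The 4 groups did not overlap, and here KO 0 h, not KO 2 h, was highest. Gm12185 fell by 1.16 on the log2 scale from KO 0 h to KO 2 h (SE 0.28, edgeR adjusted p = 0.00104). From WT 0 h to WT 2 h it rose by 2.69 (SE 0.49, edgeR adjusted p = 6.34e-05). With 10 reads in WT 0 h, that value was 3.93 without WT 0 h replicate 1 and 2.02 without WT 0 h replicate 2. Over the same alternatives KO 0 h against WT 0 h was 6.04 and 4.12, and KO 2 h against WT 0 h 4.89 and 2.97. KO 2 h against WT 2 h did not pass (0.96, SE 0.33, edgeR adjusted p = 0.322), although both KO libraries lay above both WT ones.

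Tgtp2 (Irgb6) is an effector that binds vacuole membranes early. It had 0 reads in both WT 0 h libraries, 1 and 0 in WT 2 h, 31 and 49 in KO 0 h (1.71 and 3.27 CPM) and 14 and 7 in KO 2 h (0.643 and 0.490 CPM). As for Gm12185, KO 0 h was highest and did not overlap with KO 2 h. The limit that a count of 0 allows over the WT 0 h group was set at 3 reads. Against 3 reads, the observed level was 32.9-fold higher in KO 0 h and 7.93-fold higher in KO 2 h. With the counting error of both groups, the exact lower 95% limits were 26.1-fold for KO 0 h and 5.90-fold for KO 2 h. KO 0 h exceeded WT 2 h 88.3-fold, with an exact 95% counting interval of 15.4 to 3532, and KO 2 h exceeded WT 2 h 21.3-fold (3.42 to 880.3). These 95% limits and intervals cover counting error only. From KO 0 h to KO 2 h Tgtp2 fell, with a log2 fold change of -2.08 (SE 0.54, edgeR adjusted p = 0.00217), and the call was lost without KO 0 h replicate 2 (-1.56, edgeR adjusted p = 0.0522, with 0.00113 to 0.0522 over all alternatives).

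**Figure D2:**
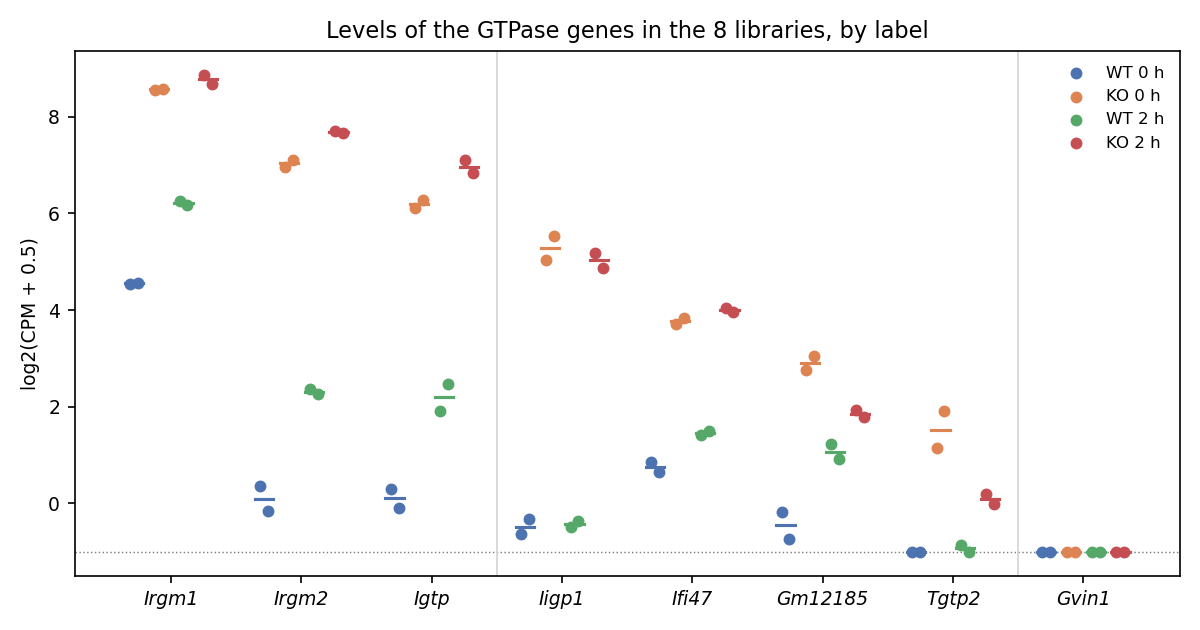
Level of each member in each of the 8 libraries, as log2(CPM + 0.5), with 1 point per library and a bar at the mean of the 2 libraries of a label; the dotted line marks 0 reads. Regulatory genes are at left, effectors in the middle, Gvin1 at right; KO 0 h lies above KO 2 h for Gm12185 and Tgtp2 and below it for the 3 regulatory genes and Ifi47.

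Set against the rest of the transcriptome, the comparison of KO 0 h with WT 0 h asked by label what the knockout does without interferon. Each of the 7 tested members was called higher in KO 0 h (edgeR, Benjamini-Hochberg adjusted p below 0.05). Of the 12807 tested genes, 3.92% were called, 2.65% higher and 1.27% lower. Tgtp2 and Iigp1, with at most 6 reads in any WT library, passed the filter on low counts only through KO libraries. Their calls are therefore not independent of the filter, here and in the other comparisons of KO with WT labels. DESeq2 called 5 members higher and gave no adjusted p to Tgtp2 and Gm12185. With no filter, 7 members were also called higher by edgeR. The count was also 7 without KO 0 h replicate 2, the library that stood apart. Leaving out Tgtp2, which had 0 reads in WT 0 h, the log2 fold changes ran from 3.46 to 7.78. The median over the 7 was 6.93 as fitted and 5.04 with Tgtp2 set against 3 reads in WT 0 h, beside 0.01 over all tested genes. The regulatory genes gave 4.04 for Irgm1 (SE 0.09), 7.78 for Irgm2 (SE 0.16) and 6.93 for Igtp (SE 0.21). The effectors gave 7.42 for Iigp1 and 4.81 for Gm12185 (SE 0.41), so the roles overlapped in size. The members with the smallest differences, Ifi47 and Irgm1, were the 2 with the highest CPM per kb in WT 0 h. Since the WT 0 h level enters each difference, the 2 measures are tied by construction.

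KO 2 h against WT 2 h asked by label what the knockout does under IFN-β. Of the 7 tested members 5 were called higher, against a background of 1.60% called, 1.59% higher and 0.00781% lower. Irgm1 gave 2.57 (SE 0.08), Irgm2 5.53 (SE 0.12), Igtp 4.91 (SE 0.15) and Ifi47 2.80 (SE 0.19), and Iigp1 the 7.004 given above. Tgtp2 (21 reads against 1, edgeR adjusted p = 0.0908) and Gm12185 did not pass. Tgtp2 was called when no filter on low counts was applied (edgeR adjusted p = 0.0217, with 0.0217 to 0.704 over all alternatives). All 3 regulatory genes were thus called, and 2 of the 4 effectors.

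Between 2 h and 0 h the background was high. WT 2 h against WT 0 h is by label the interferon response of unedited cells, and 61.2% of tested genes were called, 30.1% higher and 31.1% lower. Of the 7 members 5 were called higher, and Iigp1 and Tgtp2 were not called. Irgm1 gave 1.68 (SE 0.09), Irgm2 2.91 (SE 0.26) and Igtp 2.81 (SE 0.31). With Tgtp2 left out, because it had 1 read in these 4 libraries, the median over 6 members was 2.18, beside 0.01 over all tested genes.

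KO 2 h against KO 0 h, by label the response of knockout cells, gave calls in both directions. The 3 regulatory genes were called higher and none of the 4 effectors was: Gm12185 and Tgtp2 were called lower, and Iigp1 and Ifi47 were not called. In size the roles overlapped, since the effector Ifi47 gave 0.24 (SE 0.16) and the regulatory Irgm1 0.21 (SE 0.08). The background was 61.1% called, 30.0% higher and 31.2% lower, so counts of 3 and 2 among 7 stood near it. The median was 0.66 over the regulatory genes and -0.71 over the effectors, beside -0.01 over all tested genes. Without the call of Irgm1, which rested on 1 library, the regulatory side of this split is Irgm2 and Igtp. With no composition factor, which shifted the median gene by 0.15, Ifi47 was called as well (0.39, edgeR adjusted p = 0.038, with 0.038 to 0.399 over all alternatives). Whether the roles differ was not tested as such, since 7 chosen genes are not replicates.

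The diagonal comparisons put groups side by side that differ in both labels. Each of the 7 members was called higher in KO 2 h than in WT 0 h (background 62.3% called, 30.8% higher and 31.4% lower), with log2 fold changes from 3.65 for Gm12185 to 8.44 for Irgm2. Each was also called higher in KO 0 h than in WT 2 h (background 60.3% called, 31.5% higher and 28.8% lower). There the values ran from 2.12 for Gm12185 (SE 0.30) to 7.27 for Iigp1 (SE 0.29), and Irgm2 gave 4.87 (SE 0.12). Several of these comparisons share libraries, so they are not separate lines of evidence.

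**Figure D3:**
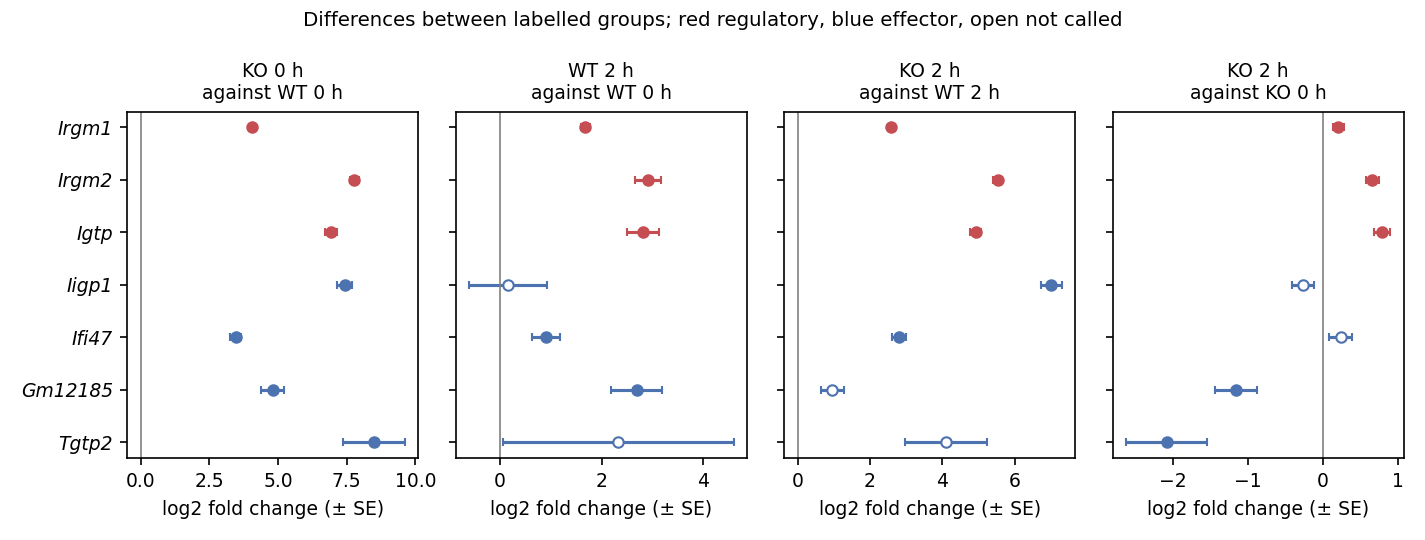
Log2 fold change with its SE for the 7 tested members in the 4 comparisons that change 1 label (x axes differ between panels; red regulatory, blue effector, open symbols not called; Tgtp2 against WT groups is a fitted value over 0 or 1 read). All 7 are right of 0 for KO 0 h against WT 0 h. For KO 2 h against KO 0 h the 3 regulatory genes and Ifi47 (not called) are right of 0. Gm12185, Tgtp2 and Iigp1 (not called) are left of it.

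The interaction, the 2 h minus 0 h difference under the KO labels less that under the WT labels, was called for 0.133% of tested genes, or 17 of 12807, with 0.0547% positive and 0.0781% negative. Of the members, 4 were among them, all negative. DESeq2 called 3 members, the regulatory genes, and gave Gm12185 no adjusted p. Gm12185 gave -3.85 (SE 0.56, edgeR adjusted p = 0.00239), Irgm2 -2.25 (SE 0.28, edgeR adjusted p = 0.000243), Igtp -2.02 (SE 0.35, edgeR adjusted p = 0.0103) and Irgm1 -1.47 (SE 0.12, edgeR adjusted p = 2.39e-07). The step from 0 h to 2 h was thus smaller under the KO labels for the 3 regulatory genes, and of opposite sign for Gm12185. The other effectors were not called: Iigp1 gave -0.42 (SE 0.80) and Ifi47 -0.66 (SE 0.31), and for Tgtp2, with 1 read under the WT labels, no value is given. The call of Igtp was lost without WT 0 h replicate 2 (-1.68, edgeR adjusted p = 0.152) and without WT 2 h replicate 2 (-1.69, edgeR adjusted p = 0.0703), and over all alternatives its adjusted p ran from 7.08e-08 to 0.152. The call of Gm12185 was lost without WT 2 h replicate 1 (-3.64), and its value was -5.08 without WT 0 h replicate 1 and -3.16 without WT 0 h replicate 2. For Irgm2, Igtp and Gm12185 these values rest on 24, 24 and 10 reads over the WT 0 h group.

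Levels of different genes were compared per length, as CPM per kb of the longest RefSeq-matched transcript. On this scale the regulatory genes made up 93.1 ± 0.761% of the members' summed level in WT 0 h, 91.6 ± 1.17% in KO 0 h, 95.6 ± 0.105% in WT 2 h and 94.1 ± 0.0623% in KO 2 h (mean ± SD, n = 2 each). Within them the make-up shifted between the genotype labels. Irgm1 alone made up 89.1 ± 2.27% of the members' level in WT 0 h and 86.7 ± 1.70% in WT 2 h, but 63.7 ± 2.06% in KO 0 h and 57.8 ± 0.353% in KO 2 h. Igtp and Irgm2 took most of the difference, at 13.6 ± 0.410% and 14.3 ± 0.482% in KO 0 h and 18.4 ± 0.812% and 17.8 ± 1.23% in KO 2 h. Iigp1 was the leading effector in KO 0 h, with 12.5 ± 3.05 CPM per kb, followed by Ifi47 with 7.48 ± 0.455. In WT 0 h the leading effector was Ifi47, with 0.677 ± 0.0949 CPM per kb. These shares depend on the transcript chosen, and that of Tgtp2 counts reads from its unshared sequence only.

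**Figure D4:**
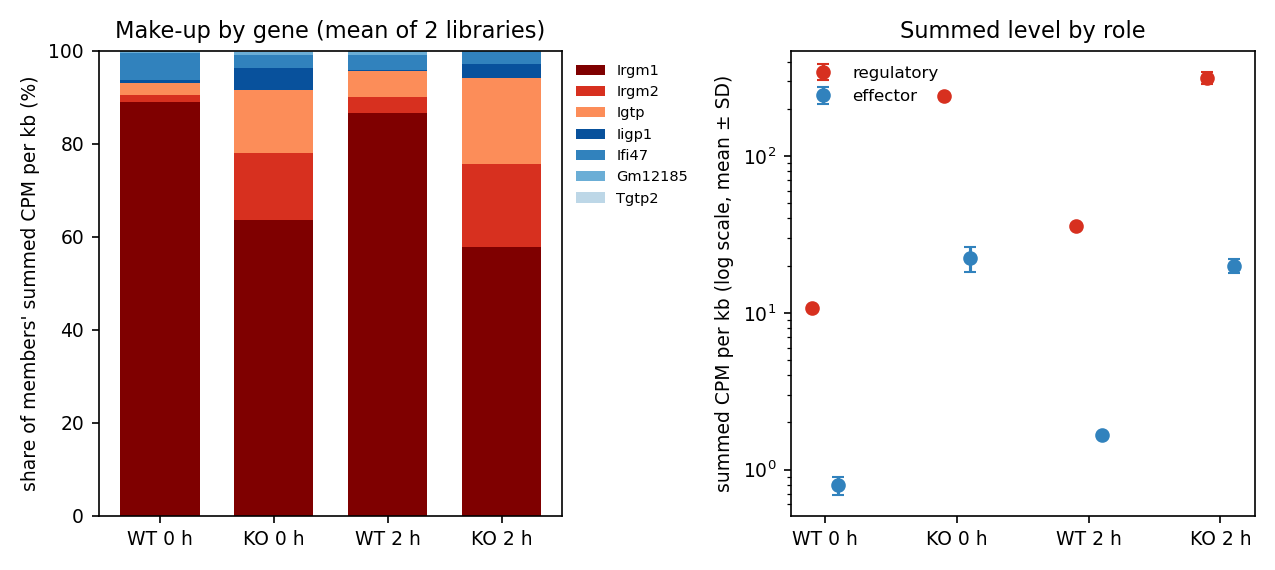
Left, share of each gene in the members' summed CPM per kb, in percent, mean of 2 libraries per label. Right, summed CPM per kb of the 3 regulatory and the 4 effector genes on a log scale, mean ± SD, n = 2; Irgm1 makes up 89.1% in WT 0 h and 57.8% in KO 2 h.

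Of 14 other gene rows of the family found in the tables, 5 passed the filter. Of these 4 were called higher in KO 0 h than in WT 0 h by edgeR (Gm12250, Gm4951, Gm4841 and 9930111J21Rik1) and 1 by DESeq2, and none was lower by either. Gm12250, Gm4951 and Gm4841, with at most 5 reads in any WT library, passed the filter only through KO libraries. For these genes the filter and the call are not independent, and rows that failed the filter are outside the count. In counts by DESeq2, here and below, a gene given no adjusted p is counted as not called. Gm4951, an Iigp1 relative, had 0 reads in WT 0 h, 33 and 54 in KO 0 h, 3 and 0 in WT 2 h and 46 and 25 in KO 2 h. The gene 9930111J21Rik1, which lies beside Tgtp1, was highest in the libraries labelled 2 h: 0.588 ± 0.00240 CPM in WT 0 h, 1.59 ± 0.214 in KO 0 h, 10.9 ± 1.35 in WT 2 h and 16.6 ± 1.40 in KO 2 h (mean ± SD, n = 2 each). Irgq, a distant relative, stood at 27.9 ± 1.72, 24.8 ± 2.83, 60.3 ± 4.66 and 52.5 ± 2.36 CPM in that order and was not called between the genotype labels at 0 h (-0.18, SE 0.11, edgeR adjusted p = 0.384).

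The guanylate-binding proteins, a second family of interferon-inducible GTPases that act on the same vacuoles, gave 9 of 10 tested genes higher in KO 0 h than in WT 0 h (5 by DESeq2) and 10 of 10 higher in WT 2 h than in WT 0 h. The lower DESeq2 count does not tell genes tested and not called from genes given no adjusted p. Their median log2 fold changes were 4.55 and 3.98, beside 0.01 over all tested genes in each. In KO 0 h against WT 2 h, where each of the 7 GTPases studied here was higher in KO 0 h, 6 of the 10 were higher and 3 lower. Gbp9, for example, stood at 16.5 ± 1.88 CPM in KO 0 h and 74.6 ± 0.574 CPM in WT 2 h, and Gbp4 at 8.21 ± 0.766 and 21.3 ± 0.794 CPM. Gbp2 was higher in KO 0 h, with 35.1 ± 7.90 and 5.96 ± 0.263 CPM.

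Of 15 receptor, Jak, Stat and Irf genes 8 were higher in KO 0 h than in WT 0 h and 0 lower, with a median of 0.45. Jak1, a kinase of the interferon receptors, stood at 311 ± 7.78 and 322 ± 19.3 CPM in WT 0 h and KO 0 h (0.05, SE 0.07, edgeR adjusted p = 0.745). Stat2, found in the ISRE-binding factor, rose by 3.93 on the log2 scale in that comparison (SE 0.10) and, from WT 0 h to WT 2 h, by 0.93 (SE 0.10).

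Of 7 brakes on interferon signalling, Usp18 and Socs1 were higher in KO 0 h than in WT 0 h, or 2 by edgeR and 1 by DESeq2, and 0 were lower (median 0.21). Usp18, which blocks the type I receptor, stood at 0.392 ± 0.0677 CPM in WT 0 h, 50.3 ± 0.126 in KO 0 h, 3.20 ± 0.260 in WT 2 h and 115 ± 12.2 in KO 2 h. The conjugation machinery of autophagy, on which correct loading of effectors depends, gave 1 of 17 genes higher in KO 0 h than in WT 0 h, with a median of -0.05, and 11 higher and 2 lower in WT 2 h against WT 0 h. The 1 was Trim21, named because it was the only call: a ubiquitin ligase placed on the list as a partner of the machinery, it differed by 3.82 on the log2 scale (SE 0.12, edgeR adjusted p = 8.82e-17). Sqstm1, an autophagy receptor, stood at 328 ± 4.35 CPM in WT 0 h, 317 ± 35.1 in KO 0 h, 743 ± 33.4 in WT 2 h and 706 ± 41.5 in KO 2 h. Each of these list counts is read against the background of its comparison given above.

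Genes outside the family with the most similar profile were ranked by the distance between centred log2(CPM + 0.5) values over the 8 libraries, in which libraries and labels are shared. Igtp was nearest to Usp18, at a distance of 0.534, closer than to Irgm2 at 1.16. The nearest outside gene is picked from far more genes than the nearest fellow member. A shorter distance to it can therefore come from number alone. For Irgm2 the nearest outside gene was also Usp18 (1.26), followed by Mx2 and Ifit1. Irgm2 was the only tested member that lay closer to a fellow member (Igtp, 1.16) than to any outside gene. Irgm1 was nearest to Dtx3l (0.844), Trim21 and Stat2. Among the effectors, Iigp1 was nearest to Mx2 (1.20) and Rtp4, and Ifi47 to Ddx58 (0.334), Gbp2 and Irf9, each at a shorter distance than its nearest fellow member. Tgtp2 was nearest to Apol6 (0.756), Zbp1 and Oas2, and Gm12185 to Oas2 (1.25), Sp100 and Zbp1.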

How the data were processed

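What the authors deposited is a raw count of reads for each of 23304 gene symbols in every library, followed by 4 summary rows. The submitters' processing notes name the mm9 build, HTSeq, STAR 2.5.2b and bcl2fastq 2.15; for annotation, strand setting and read length, the sources used here give nothing. The summary rows (36.9 to 43.2% of reads, with 14.1 to 17.0% mapping to several places) entered neither library sizes nor tests. In edgeR 4.0.16 (R 4.3.3), filterByExpr kept 12807 genes. Its settings were a minimum count of 10, scaled by depth, and 15 reads in total. The minimum had to be met in any 2 libraries, the size of a group, and not in each library. TMM gave the scaling, and a robust quasi-likelihood model with 1 coefficient per label was fitted to the 8 libraries, leaving 4 residual degrees of freedom. A call is a Benjamini-Hochberg adjusted p below 0.05 across all tested genes, within each of 7 comparisons. SE is the absolute log2 fold change over the square root of F. The procedure was tested on simulated data. The members, lists and comparisons were chosen with earlier results of these data known. Named beside the members were up to 3 genes per list with the highest mean CPM, and the 3 genes nearest each member in profile; several of these are left to the counts. Genes called in lists with few calls were named after their values were seen. Alternatives were RLE factors, library size alone, DESeq2 1.42.0, other filters, fits of only the compared groups, a replicate block, and leaving out each library in turn (the lone library then borrows the spread of the other groups). Promoter windows are from RefSeq on GRCm38.p6, aligned with Biopython 1.88, and transcripts from GENCODE M21; neither shares the build of the counts.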

Additional observations from a re-analysis of the deposited data

Results flagged for a closer look

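The difference between 2 h and 0 h was called as dependent on the genotype label for 4 members, by the interaction term of the edgeR fit. The calls of Igtp and Gm12185 did not hold with every library left out in turn, as given above. For Irgm2, Igtp and Gm12185 the WT 0 h group held 24, 24 and 10 reads. The interaction was -1.47 for Irgm1, -2.25 for Irgm2, -2.02 for Igtp and -3.85 for Gm12185 on the log2 scale. For Irgm1, Irgm2 and Igtp both steps were upward and the one under the KO labels was smaller; for Gm12185 the step was 2.69 under the WT labels and -1.16 under the KO labels. Groups of 2 libraries are too small for a check of single outlying samples.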

How the results depend on the processing

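Among 718 values of the 7 members over 15 alternatives, 705 kept their direction and side of the threshold, 3 passed it anew, 6 no longer passed and 4 changed sign. The sign changes all concerned Iigp1 differences that were not called: WT 2 h against WT 0 h was -0.26 without WT 0 h replicate 1 and -0.0004 without WT 2 h replicate 2, within a range of -0.26 to 0.71 over libraries left out. KO 2 h against KO 0 h was 0.0035 without KO 0 h replicate 2, within -0.47 to 0.0035, and the interaction was 0.015 without WT 0 h replicate 1, within -0.96 to 0.015. The 718 leave out 6 values for which DESeq2 gave no adjusted p. They were Tgtp2 and Gm12185 in KO 0 h against WT 0 h, and Iigp1, Tgtp2, Ifi47 and Gm12185 in the interaction. Both values of KO 0 h against WT 0 h, and Gm12185 in the interaction, were called in the main fit. They are not counted among those that no longer passed. Also left out are values that failed the filter in fits of only the compared groups. These were Iigp1 and Tgtp2 in WT 2 h against WT 0 h, and Tgtp2 in KO 2 h against WT 2 h. Left out in turn, the libraries gave 1 to 3 members lower in KO 2 h against KO 0 h. Over all genes the same step gave 174 (without WT 0 h replicate 1) to 1073 calls (without KO 0 h replicate 1) for KO 0 h against WT 0 h, and 6 (without WT 2 h replicate 1) to 91 (without KO 0 h replicate 1) for the interaction. Without a filter there were 809 calls for KO 0 h against WT 0 h and 113 for the interaction, and DESeq2 gave 33 for the interaction; the cause was not tested. The replicate block gave 322 calls for KO 0 h against WT 0 h, against 502 without it, and changed no call of a member. Deviations of same-numbered libraries correlated between -0.073 and 0.013, so the numbers were not taken to pair the libraries. With no composition factor the median gene shifted by 0.14 and 0.15 in the 2 h against 0 h comparisons of WT and KO. Tgtp2 had no value for WT 2 h against WT 0 h without WT 2 h replicate 1, since no read was left. Depth limits Tgtp2, Iigp1 and Gm12185 most under the WT labels, where 1 library held at most 34 reads of any of them.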
